A study of Mus musculus with 21 samples.

Results

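Oxidative phosphorylation is carried out by 5 protein complexes of the inner mitochondrial membrane, and most of their subunits are encoded in the nucleus. The transcripts of these nuclear genes were followed in 21 RNA libraries of sorted mouse peritoneal B cells. Members were chosen by name, as protein-coding genes whose symbol begins with Nduf followed by a, b, c, s or v, is Sdha, Sdhb, Sdhc or Sdhd, or begins with Uqcr, Cox4 to Cox8 or Atp5. The pattern matched 117 symbols, of which 19 belonged to genes that are not protein-coding, so that 98 members remained among 56953 genes in the files. By the beginning of the symbol alone, complex I had 48 members (8 of them Ndufaf assembly factors), complex II 4, complex III 8, complex IV 19 and complex V 19. Genes such as Ndufa4 were thus placed in complex I by name, and the place of their proteins was not checked. The mitochondrially encoded (mt-) genes, 37 in number, served as the comparison.

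All mice were C57BL/6, and all cells were sorted from the peritoneal cavity. TET2-KO mice lack Tet2 in every tissue through deletion of the exons that encode its catalytic region, and WT mice carry the intact gene. The study describes its mice as young, and no age in weeks was given in the sources used here. Libraries came from B-1a cells (4 WT and 4 TET2-KO), B-1b cells (4 WT and 3 TET2-KO) and B-2 cells (2 WT, numbered 1 and 4, and 4 TET2-KO). The study examined what global loss of TET2 does to the function and receptor repertoire of these B cell subsets.

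Complex I (NADH dehydrogenase) and complex II (succinate dehydrogenase) pass electrons to ubiquinone, complex III (cytochrome bc1) hands them to cytochrome c, and complex IV (cytochrome c oxidase) reduces oxygen. Complex V (ATP synthase) uses the proton gradient built by complexes I, III and IV to make ATP. The mitochondrial genome adds core subunits to each complex except complex II, so both genomes must be expressed to build the chain. B-1 cells are long-lived, self-renewing cells that make natural IgM, and B-2 cells are the recirculating B cells of the adaptive response.

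Total counts per library ranged from 9667187 to 24152518, and 17816 to 35576 genes had at least 1 count. Tet2, over all of its exons, was counted at 8.45, 11.8, 27.2 and 19.8 CPM (counts relative to the library total on the usual CPM scale, with the total scaled by edgeR's TMM factor over the 21 libraries) in WT B-1a libraries 1 to 4 and at 21.97, 20.9, 17.96 and 29.1 CPM in TET2-KO B-1a libraries. In B-1b cells it was counted at 10.9, 10.2, 17.4 and 20.3 CPM in WT and at 16.4, 19.5 and 17.2 CPM in TET2-KO libraries. B-2 cells had 14.2 and 15.2 CPM in WT and 14.5, 21.4, 12.6 and 30.3 CPM in TET2-KO libraries. Tet2 was therefore not lower in TET2-KO libraries (log2 fold change, log2FC, 0.45, standard error, SE, 0.35, adjusted p = 0.689 in B-1a cells by edgeR's quasi-likelihood test), but the counts also cover exons outside the deleted part, so these counts do not check the genotype labels. Subset markers were checked as summed lists of B-1 genes (such as Cd5 and Bhlhe41) and B-2 genes (such as Fcer2a and Cr2). The library labelled B-1a WT 1 had 343 CPM on B-1 and 7003 CPM on B-2 markers, that labelled B-1b WT 2 had 450 and 5773 CPM, and that labelled B-2 WT 1 had 1092 and 1356 CPM, each against its label. The other B-2 libraries had 181 to 476 CPM on B-1 and 3616 to 6698 CPM on B-2 markers, whereas the other B-1 libraries had 821 to 1508 CPM and 770 to 1932 CPM. The 5 libraries labelled WT 1 or WT 2 also had only 10.3 to 19.98 CPM of the plain total on olfactory and vomeronasal receptor genes, which B cells are not known to use, whereas the other 16 had 118 to 2994. Macrophage markers summed to 4499 to 30640 CPM in every library, including those of B-2 cells. Deposited labels were kept, and results without these libraries are given where they differ.

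Of the 98 members, 87 had a mean of at least 5 CPM over the 21 libraries. Of the 98, 4 had no count in any library: Ndufa4l2, Ndufb11b, Cox8b and a second gene model named Atp5po, whose exons lie wholly within those of other genes. Cox6a2, Cox8c and Cox4i2, isoforms known from muscle, testis and lung, reached at most 4, 11 and 14 counts, and the testis isoform Cox7b2 at most 22. Cox7a1 (muscle and heart isoform) and Cox6b2 (testis isoform) were counted at 1.42 and 1.34 CPM on average. The ubiquitous partners of these isoforms were among the highest members, with Cox4i1 at 504 CPM and Cox6a1 at 423 CPM. Fewer cells of a type and less RNA per cell cannot be told apart in such bulk libraries.

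Per kilobase of exon, the highest member of each complex was Ndufa1 in complex I (671 CPM per kb), Sdhd in complex II (161), Uqcrb in complex III (363), Cox6a1 in complex IV (602) and Atp5f1b in complex V (288). Ndufa1 is a small membrane-arm subunit of complex I, Sdhd anchors complex II in the membrane, Uqcrb binds near the ubiquinone site of complex III, Cox6a1 is a small regulatory subunit of complex IV, and Atp5f1b is the catalytic beta subunit of ATP synthase. Atp5f1b (chr10:127919142-127926260 in GRCm39, plus strand) was also the member with the most counts, 1221 CPM on average. It took 3.77% to 10% of all member counts in a library (mean 7.5%), followed by the alpha subunit Atp5f1a with a mean of 3.59% and Cox4i1 with 3.11%. The large electron-transfer subunits were lower per length, with 8.05 CPM per kb for Ndufs1, which carries iron-sulfur clusters, 36.7 for Ndufv1, which binds NADH, and 81.4 for Sdha, the flavoprotein of complex II. By counts, complex I held a median of 33.7% of the member total (31% to 39.1% across libraries), complex II 5.42% (4.64% to 7.04%), complex III 10.2% (9.69% to 10.7%), complex IV 18.4% (16.7% to 20.1%) and complex V 32.2% (26% to 34.8%).

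**Figure D1:**
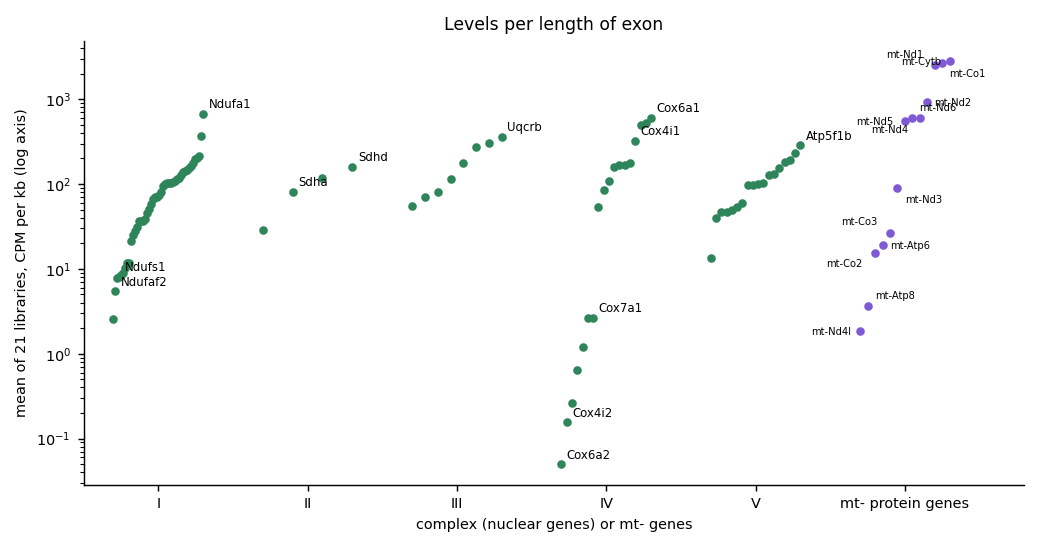
Mean level per kilobase of exon (CPM per kb over the 21 libraries, log axis) of each nuclear member with at least 1 count, sorted within its complex, and of the 13 mt- protein genes. The highest nuclear members lie between 161 (Sdhd) and 671 CPM per kb (Ndufa1), and tissue isoforms such as Cox4i2 and Cox6a2 form the low tail of complex IV.

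Among mt- protein genes, mt-Cytb of complex III (2825 CPM per kb), mt-Co1 of complex IV (2697) and mt-Nd1 of complex I (2521) lay above every nuclear member per length. In the same libraries mt-Co2 had 15.4, mt-Atp6 19.2, mt-Co3 26.7, mt-Atp8 3.65 and mt-Nd4l 1.84 CPM per kb. All 100-base windows of these 5 low genes have an exact copy elsewhere in the GRCm39 genome, on chromosome 1, and fragments that align to several places were not counted. For mt-Nd3, at 89.4 CPM per kb, 98.8% of the windows have such a copy, for mt-Nd4 60.8% and for mt-Co1 30.8%, whereas mt-Cytb and mt-Nd1 have none. Levels of single mt- genes are therefore not comparable with each other. Among the members, 71 of 98 had no copied window, and 4 had a copy of over 50% of their windows: Atp5mc2 (87.5%), Cox7c (68.3%), Ndufab1 (64.7%) and Atp5mc1 (53.8%). The counting ignored strand, and Atp5if1 (69.6%) and Ndufaf2 (65.6%) share most of their exon bases with an overlapping gene, so that their values are uncertain.

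Transcription factors NRF1 and GABP (of the ETS family) are known regulators of these genes, and YY1 is a further one. RefSeq promoters (GRCm38.p6, 250 bases before to 50 after the start) were found for 76 of the 98 members, 13 of them under an older symbol. GCGCATGCG or GCGCACGCG (NRF1) occurred on either strand in 14 of these 76 promoters (18.4%), against 3.36% of all 32851 promoters in the table and 4.59% of those of coding genes. CCGGAAG (ETS) occurred in 17 (22.4%, against 8.86% and 11.6%) and AAGATGGCG (YY1) in 7 (9.21%, against 1.40% and 1.83%). At least 1 of the 3 motifs was found in 32 member promoters (42.1%), against 12.6% of all and 16.6% of coding promoters, and 6 of the 7 YY1 matches were in complex I promoters, which make up 41 of the 76. The median GC content was 58.5% in member promoters and 52.7% in all promoters, and 56.3% in those of coding genes. Of the 76 member promoters, 44 held none of the 3 motifs, 26 held 1 and 6 held 2. The promoters below are those of the highest member of complexes II and IV (Sdhd, Cox6a1) and of 3 members discussed under the subset comparison (Uqcr11, Ndufs8, Ndufaf8). All of those printed hold a motif, so they are not typical of the members. Capitals mark the motif matches, NRF1 and ETS in Sdhd, Cox6a1 and Uqcr11, ETS alone in Ndufs8, and ETS and YY1 in Ndufaf8, and CTTCCGG is the ETS motif read on the other strand. The NRF1 letters of Cox6a1 are a palindrome and match on both strands, 1 base apart.
Sdhd, chr9:50603800-50604099, minus strand: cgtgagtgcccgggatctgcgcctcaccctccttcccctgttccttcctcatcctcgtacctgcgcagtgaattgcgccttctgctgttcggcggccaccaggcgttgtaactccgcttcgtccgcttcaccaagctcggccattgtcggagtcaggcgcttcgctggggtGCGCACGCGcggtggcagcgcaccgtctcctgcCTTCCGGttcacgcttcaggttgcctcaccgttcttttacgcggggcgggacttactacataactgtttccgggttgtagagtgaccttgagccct
Cox6a1, chr5:115348909-115349208, minus strand: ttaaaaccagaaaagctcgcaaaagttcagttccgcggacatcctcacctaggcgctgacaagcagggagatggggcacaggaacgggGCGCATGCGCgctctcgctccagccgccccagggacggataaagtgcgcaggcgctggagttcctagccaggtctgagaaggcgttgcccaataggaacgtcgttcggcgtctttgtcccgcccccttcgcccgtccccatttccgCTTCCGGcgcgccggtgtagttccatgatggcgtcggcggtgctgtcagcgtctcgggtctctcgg
Uqcr11, chr10:80406772-80407071, minus strand: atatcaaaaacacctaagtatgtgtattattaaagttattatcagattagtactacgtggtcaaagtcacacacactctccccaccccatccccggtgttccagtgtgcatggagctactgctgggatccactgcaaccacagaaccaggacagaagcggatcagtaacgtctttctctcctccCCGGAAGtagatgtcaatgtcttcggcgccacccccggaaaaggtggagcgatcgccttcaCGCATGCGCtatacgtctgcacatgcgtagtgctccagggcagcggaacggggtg
Ndufs8, chr19:3912725-3913024, minus strand: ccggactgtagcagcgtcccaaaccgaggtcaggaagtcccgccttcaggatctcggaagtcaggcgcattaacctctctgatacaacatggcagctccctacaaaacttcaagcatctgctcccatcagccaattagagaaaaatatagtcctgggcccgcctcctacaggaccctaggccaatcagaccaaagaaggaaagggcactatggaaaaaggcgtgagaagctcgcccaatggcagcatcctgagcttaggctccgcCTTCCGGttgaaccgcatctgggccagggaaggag
Ndufaf8, chr11:120098684-120098983, plus strand: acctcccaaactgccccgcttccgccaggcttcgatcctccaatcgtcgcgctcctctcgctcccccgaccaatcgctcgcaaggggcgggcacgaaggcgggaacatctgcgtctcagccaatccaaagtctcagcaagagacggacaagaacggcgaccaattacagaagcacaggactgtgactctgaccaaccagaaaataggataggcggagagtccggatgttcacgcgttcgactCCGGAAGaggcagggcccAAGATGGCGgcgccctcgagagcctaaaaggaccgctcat
In Sdhd the NRF1 match begins 79 bases before the start and the ETS match 46 bases before it. In Ndufs8 the ETS match lies 15 bases after the start. A match describes letters in the window and is not a measured binding site.

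Summed over the members, WT B-1a libraries 1 to 4 had 20207, 19092, 17257 and 16664 CPM, and TET2-KO B-1a libraries 17122, 17693, 14585 and 17735 CPM. In B-1b cells the sums were 23157, 18646, 15937 and 13402 CPM in WT and 16477, 16671 and 10632 CPM in TET2-KO libraries. B-2 cells had 19162 and 14813 CPM in WT and 14323, 11909, 14805 and 10255 CPM in TET2-KO libraries. The group means were 18310 ± 1636 (SD, n = 4), 16780 ± 1492 (n = 4), 17790 ± 4172 (n = 4), 14590 ± 3432 (n = 3), 16990 ± 3075 (n = 2) and 12820 ± 2130 (n = 4), in the same order. Of the WT libraries, the highest in each subset was the one numbered 1. Genotypes overlapped in B-1a and B-1b cells, and in B-2 cells the highest TET2-KO library (14805 CPM) lay just below the lower WT library (14813 CPM).

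As a share of all counts, without TMM, the members took 1.72%, 1.65%, 1.605% and 1.59% in WT B-1a libraries and 1.63%, 1.55%, 1.56% and 1.956% in TET2-KO B-1a libraries. In B-1b cells they took 1.75%, 1.62%, 1.59% and 1.43% in WT and 1.603%, 1.65% and 1.26% in TET2-KO libraries. In B-2 cells they took 1.601% and 1.56% in WT and 1.59%, 1.49%, 1.54% and 1.57% in TET2-KO libraries. On this scale WT and TET2-KO libraries overlapped in all 3 subsets, and the B-2 means, 1.58% ± 0.0310 (SD, n = 2) and 1.55% ± 0.0459 (n = 4), were close together. The difference between TET2-KO and WT B-2 cells in the summed log2 level was -0.41 with TMM and -0.03 without it, that in B-1a cells was -0.13 and 0.02, and that between TET2-KO B-1a and B-2 cells was 0.40 and 0.11.

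**Figure D2:**
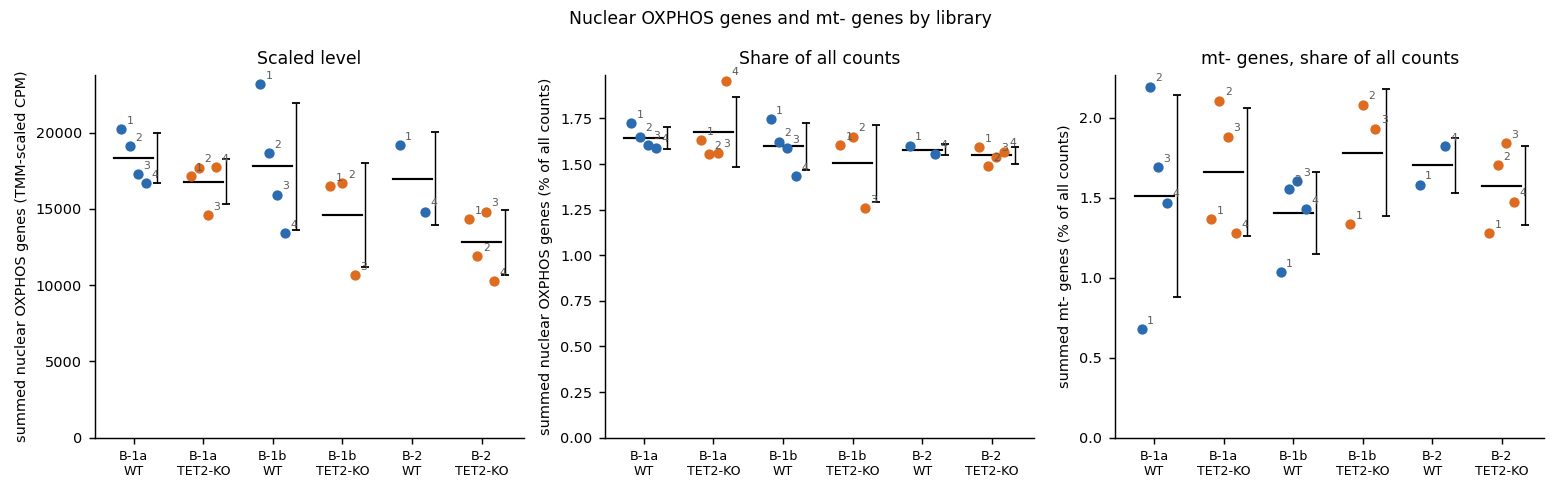
Summed nuclear members per library as TMM-scaled CPM (left) and as percent of all counts (middle), and summed mt- genes as percent of all counts (right), for each subset and genotype (WT blue, TET2-KO orange). Points are libraries with their replicate number, horizontal lines are group means and bars are SD. The spread among B-2 libraries is 10255 to 19162 CPM on the left and 1.49% to 1.601% in the middle.

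The TMM-scaled sum was lowest where receptor counts were highest. Over the 21 libraries, the 2 quantities had r = -0.87 (Spearman -0.93) on log scales, and the member percent and the receptor counts had r = -0.49 (Spearman -0.70). The TMM factor, which divides every gene of a library alike, had r = 0.86 with the receptor counts. These points share their library totals and their subsets, so the values are a description only. TET2-KO B-2 libraries 2 and 4 had the most receptor counts, 2474 and 2994 CPM of the plain total, and the lowest member sums of the B-2 cells. The part of these counts in the member levels was not tested.

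**Figure D3:**
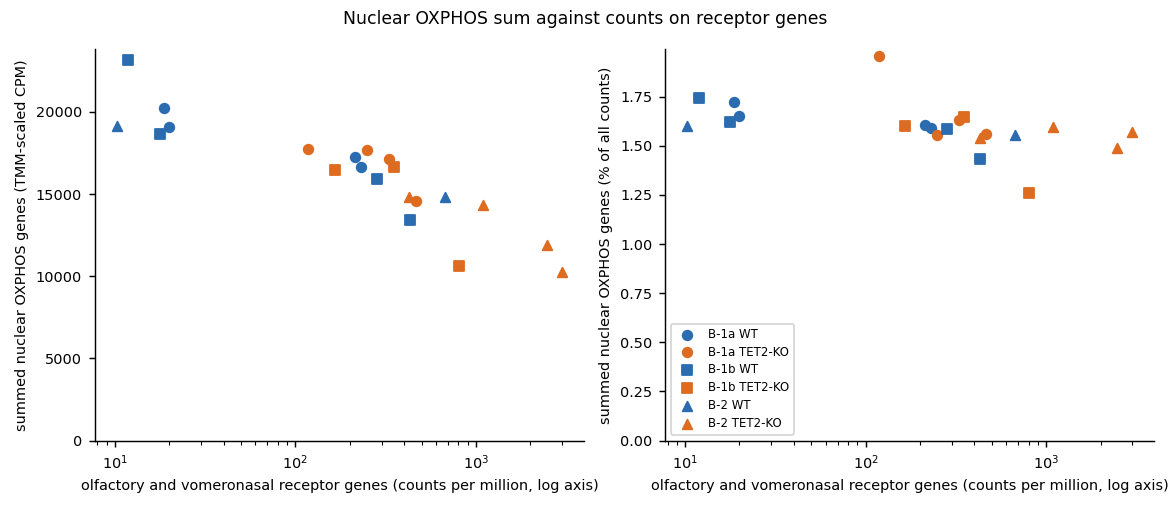
Summed nuclear members against the CPM of the plain total on olfactory and vomeronasal receptor genes (log axis), 1 point per library, as TMM-scaled CPM (left) and as percent of all counts (right). On the left the libraries run from 23157 CPM at a receptor level of 11.9 to 10255 CPM at 2994, and on the right most lie between 1.43% and 1.75% throughout.

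The summed members had r = 0.97 (Spearman 0.94) with the summed mitochondrial ribosomal protein genes, which translate mt- messages, over the 21 libraries on the TMM scale, where both sums share the scaling factor, and r = 0.80 (Spearman 0.67) on plain totals. Proportions among the members varied between libraries, and 4 libraries held most of the extreme shares. In TET2-KO B-1a 4 the ratio of complex I to complex V counts was 1.504, against 0.999 to 1.07 in the other 3 libraries of its group, and Atp5f1b had its smallest share of the members, 3.77%. In the library TET2-KO B-1b 3, members lay at a median of 0.77 log2 units below the mean of the other libraries of its group, with 83 of 87 lower, and Atp5f1b took 10%. These libraries had 18941 and 17816 genes detected, against 23913 to 28140 in the other TET2-KO B-1 libraries. The libraries labelled WT 1 or WT 2 had 18074 to 19255 genes detected and ratios of complex I to complex V of 0.9955 to 1.033. The part of the number of genes detected in the ratios was not tested. TET2-KO B-2 4 had a ratio of complex I to complex V of 1.303, Atp5f1b at 4.93% and the lowest complex II share (4.64%), and B-1b WT 4 had the highest complex II (7.04%) and the lowest complex IV share (16.7%).

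**Figure D4:**
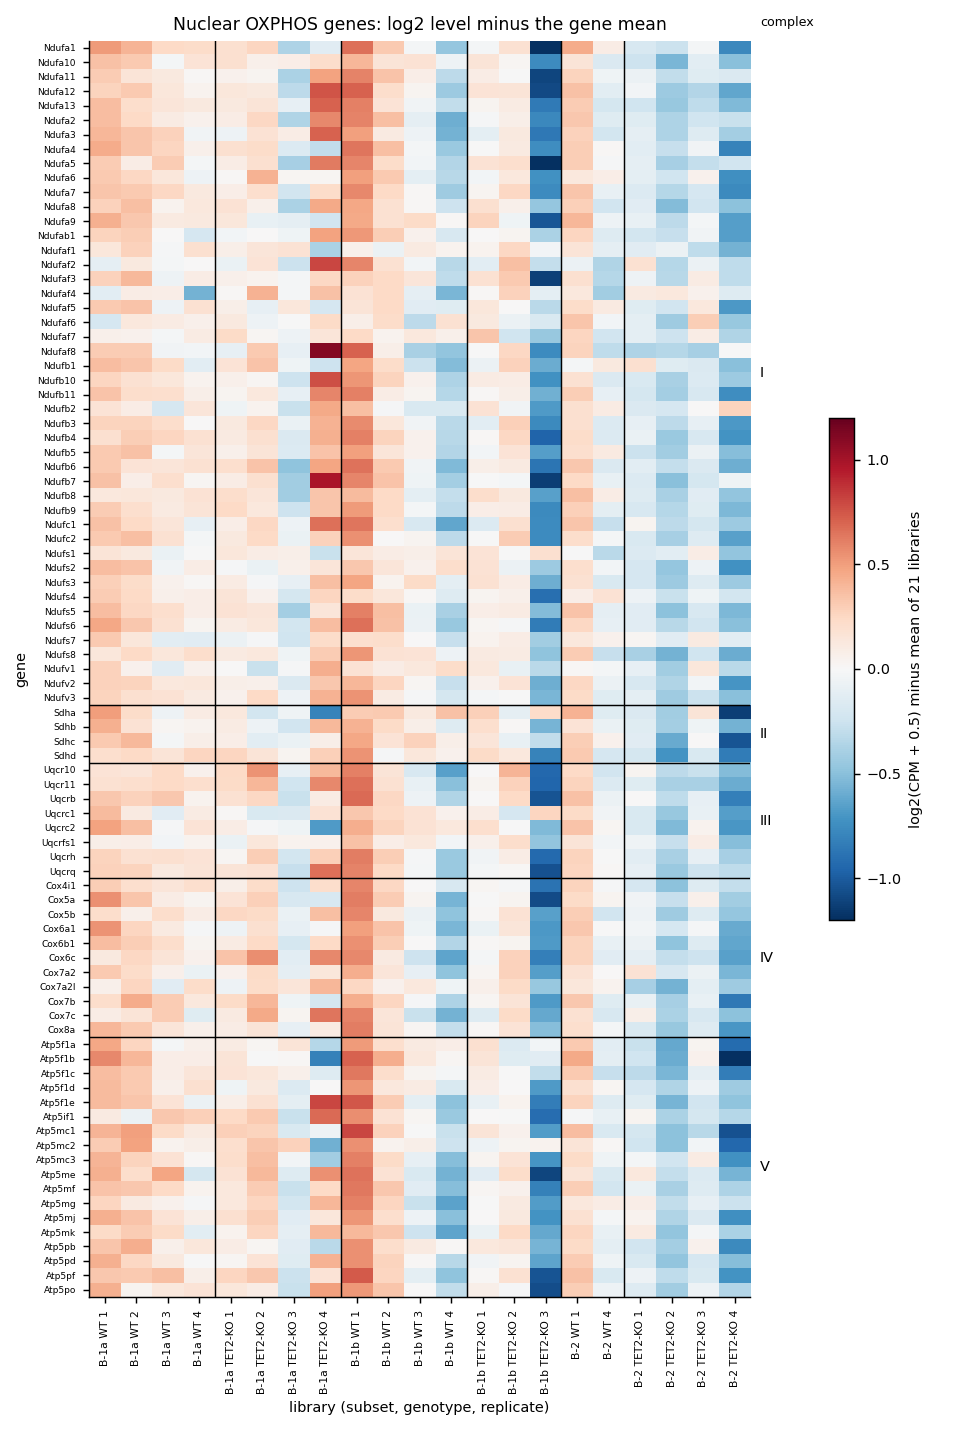
Level of the 87 members with a mean of at least 5 CPM (rows, by complex) in the 21 libraries (columns, by subset and genotype), as log2(CPM + 0.5) minus the mean of the gene. Whole columns are warm or cool, such as B-1b WT 1 (sum 23157 CPM) and TET2-KO B-1b 3 (10632 CPM), and TET2-KO B-1a 4 is warm for most of complex I and cool for Atp5f1b and Sdha.

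In B-1a cells, no member passed the test between TET2-KO and WT libraries. Of 90 members tested, 37 were higher and 53 lower in TET2-KO cells, with a median log2FC of -0.03, against 0.02 over all 13923 genes tested. With edgeR, 0 members had an adjusted p under 0.05, against 7 genes or 0.0503% of all. An unadjusted p under 0.05 was found for 1 member, against 1093 genes or 7.85% of all. DESeq2 called 0 members, where it called 186 genes. With counts divided by the plain library total, 68 of 90 were higher in the mean of TET2-KO libraries, against 27 of 90 with TMM, so the direction of the small difference depends on the scaling. The member with the smallest unadjusted p, and so chosen after its value was seen, was Ndufa9, a complex I subunit next to the membrane arm, with 184, 171, 148 and 148 CPM in WT and 151, 129, 127 and 116 CPM in TET2-KO libraries. Its log2FC was -0.28 (SE 0.13, adjusted p = 0.628 by edgeR). Only 1 TET2-KO library reached the WT range. Atp5f1b was counted at 1744, 1546, 1238 and 1235 CPM in WT and at 1306, 1165, 1183 and 668 CPM in TET2-KO libraries. The groups overlapped through TET2-KO B-1a 1, and the log2FC was -0.38 (SE 0.21, adjusted p = 0.643).

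By complex, the median log2FCs in B-1a cells were -0.01 for the 38 complex I subunits, 0.08 for the 8 assembly factors, -0.12 for complex II, -0.01 for complex III, -0.10 for complex IV and -0.10 for complex V. No single library turned the call, but the median of all members ran from -0.14 without TET2-KO B-1a 4 to 0.03 without TET2-KO B-1a 3, and leaving out both WT 1 and WT 2 gave 0.03. Beside this, 0 of 6 B-2 markers were higher in TET2-KO B-1a libraries (median log2FC -2.08, 0 called). Their sum was 7003 CPM in the library labelled B-1a WT 1 and 1259 to 1538 CPM in the other WT B-1a libraries. Of B-1 markers 7 of 7 were higher (median 0.56), of red cell (erythroid) markers 0 of 5 (-6.34) and of receptor genes 59 of 64 (1.16), with 0 called in each list. The part of these lists in the member values was not tested. Standard errors of the members had a median of 0.15.

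In B-1b cells 85 of 90 members were lower in TET2-KO libraries and their median log2FC was -0.24, against -0.01 over all 14368 genes. Again 0 members were called by edgeR (0% of all genes were called), 0 had an unadjusted p under 0.05 and DESeq2 called 0, where 787 of all genes had an unadjusted p under 0.05 and DESeq2 called 60. Of the B-2 markers, 0 of 6 were higher in TET2-KO B-1b libraries (median log2FC -1.06) and 0 were called. Receptor counts were 11.9 to 429 CPM of the plain total in WT and 166 to 802 in TET2-KO libraries. Of 121 tested receptor genes, 107 were higher in TET2-KO libraries (median log2FC 1.15). Of T cell markers, 0 of 7 were higher (median -1.02), and of red cell markers 0 of 5 (-3.26). None of these lists had a called gene, and their part in the member values was not tested. In group means, 5 of 90 members were higher in TET2-KO libraries with TMM and 28 of 90 with the plain library total. Subunit medians ran from -0.17 in complex IV to -0.30 in complex V, whereas the 8 assembly factors had a median of -0.09. The median of all members was -0.04 without TET2-KO B-1b 3, the lowest of its group, and 0.03 when WT 1 and WT 2 were left out, of which B-1b WT 1 is the highest of all 21. For example, the Rieske protein Uqcrfs1 of complex III had 195, 163, 167 and 151 CPM in WT and 161, 178 and 110 CPM in TET2-KO libraries. The core subunit Ndufs1 had 71.4, 68.6, 67.8 and 71.9 CPM in WT and 72.3, 64.2 and 74.0 CPM in TET2-KO libraries, with full overlap.

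An interaction of genotype with subset (B-1a minus B-1b), fitted over 15972 genes, called 0 members with edgeR (0% of all genes), 0 at an unadjusted p under 0.05 and 0 with DESeq2, where 250 of all genes had an unadjusted p under 0.05 and DESeq2 called 1. It was positive for 80 of 90 members, with a median of 0.19 against 0.03 over all genes. Leaving out WT 1 and WT 2 of each subset gave a median of -0.00, and the median ran from 0.01 without TET2-KO B-1b 3 to 0.35 without TET2-KO B-1b 2.

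In B-2 cells 87 of 91 members were lower in TET2-KO libraries and their median log2FC was -0.36, whereas the median of all 19786 genes was 0.18. No member was called (0 by edgeR, 0% of all genes, and 0 by DESeq2), and 1 member had an unadjusted p under 0.05, where 1754 of all genes did and DESeq2 called 169 genes. It was Ndufb8, an accessory complex I subunit chosen in the same way, with 33.4 and 27.6 CPM in WT and 23.3, 19.7, 23.6 and 18.5 CPM in TET2-KO libraries. Its log2FC was -0.50 (SE 0.19, adjusted p = 0.531 by edgeR), and its groups did not overlap. On TMM-scaled CPM, 30 of 91 members lay lower in all 4 TET2-KO libraries than in both WT libraries, against 7.24% of all genes tested. With counts divided by the plain library total, 2 of 91 did, against 1.79% of all genes, and 7 lay higher in all of them. The median log2 ratio of the members moved from -0.37 to 0.00 between these scales, and that of all genes from 0.14 to 0.46. Receptor counts were 10.3 and 675 CPM of the plain total in WT and 428 to 2994 in TET2-KO libraries, and the median log2FC of the 601 tested receptor genes was 2.31, with 593 above 0. The WT group holds the library labelled B-2 WT 1, whose markers go against its label, and the member median without it was -0.17.

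**Figure D5:**
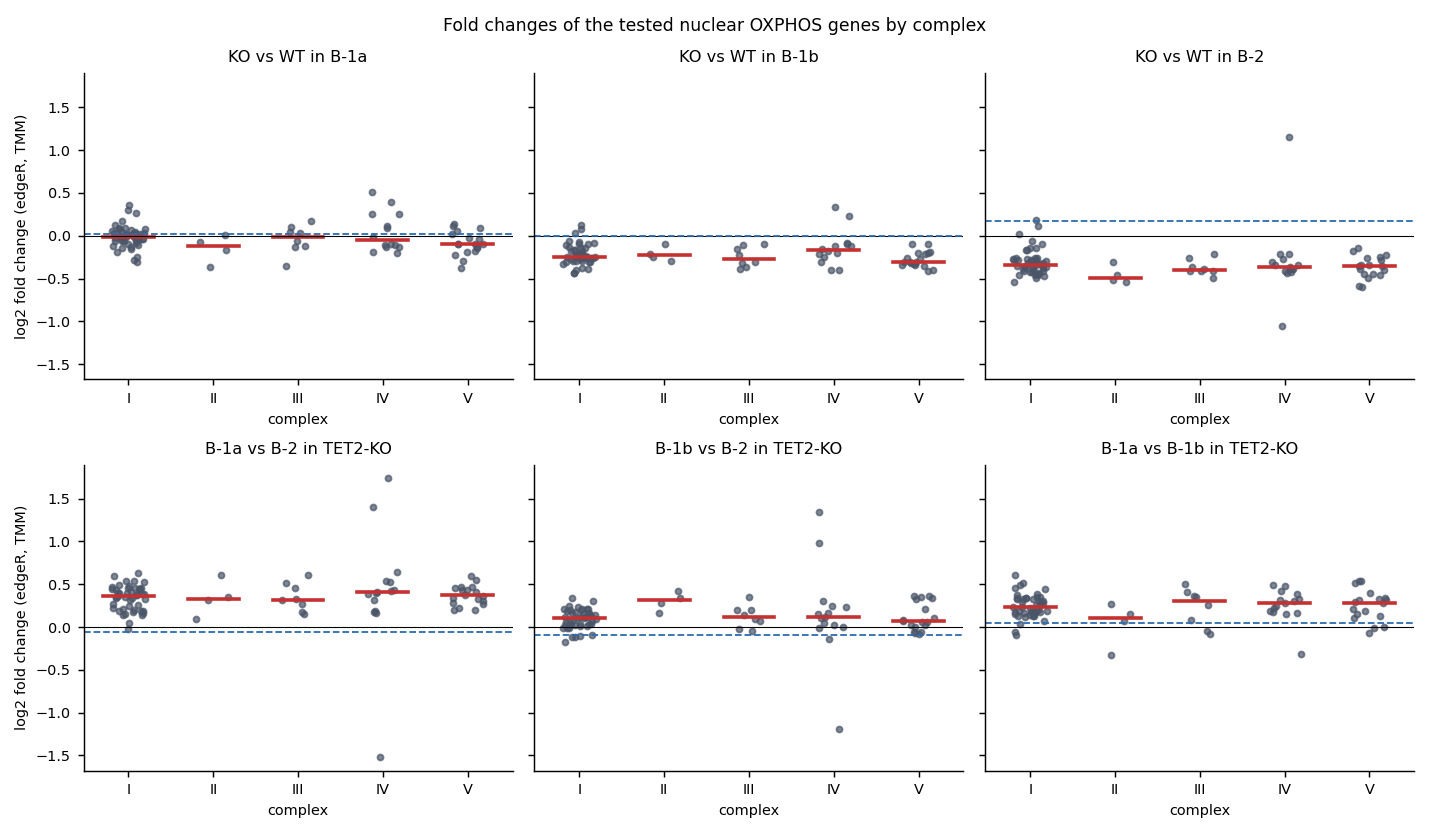
Log2FC (edgeR, TMM) of the tested members by complex in 6 comparisons, with the median of each complex (red) and that of all genes tested (dashed blue). Members lie near 0 for TET2-KO against WT in B-1a cells (median -0.03), below all genes in B-2 cells (-0.36 against 0.18), and above all genes for B-1a against B-2 cells in TET2-KO mice (0.37 against -0.05), although 0 members passed the test in any panel.

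Subsets were compared within TET2-KO mice, in a fit of 11 libraries. Between B-1a and B-2 cells, 89 of 91 members were higher in B-1a cells, with a median log2FC of 0.37, against -0.05 over all 18555 genes tested. None was called by edgeR, although 1080 genes or 5.82% of all were, and the smallest adjusted p of a member was 0.0877. At an unadjusted p under 0.05 there were 19 members, all higher in B-1a cells, and such genes made up 24.7% of all genes tested. DESeq2 called 1 member, Cox7a1, where it called 3478 of 24530 genes. By complex, the medians were 0.39 for complex I subunits, 0.20 for the assembly factors, 0.33 for complex II, 0.32 for complex III, 0.40 for complex IV and 0.37 for complex V.

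Ndufs8 (chr19:3958863-3962774, minus strand), an iron-sulfur subunit of the peripheral arm of complex I, had the smallest p. It, Cox6c, Uqcr11, Atp5f1e and Ndufaf8 were chosen for description after their values were seen. It was counted at 276, 281, 248 and 318 CPM in TET2-KO B-1a libraries and at 197, 173, 218 and 169 CPM in TET2-KO B-2 libraries. The groups did not overlap, and the log2FC was 0.54 (SE 0.18, adjusted p = 0.0877 by edgeR). Sdhd (chr9:50507657-50515112, minus strand), the membrane anchor of complex II, was counted at 229, 213, 197 and 234 CPM in B-1a and at 166, 117, 170 and 107 CPM in B-2 libraries. It too did not overlap, with a log2FC of 0.61 (SE 0.23, adjusted p = 0.117). Cox7a2l (chr17:83809347-83824759, minus strand) was listed as a factor for joining complexes III and IV into supercomplexes. Whether its protein does so in this mouse strain was not tested. The gene was counted at 153, 187, 177 and 211 CPM in B-1a and at 121, 108, 148 and 119 CPM in B-2 libraries. Its groups were apart as well, with a log2FC of 0.52 (SE 0.18, adjusted p = 0.104).

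Cox6c (chr15:35926032-35938392, minus strand), a small subunit of complex IV, had 369, 426, 266 and 433 CPM in B-1a and 269, 238, 245 and 185 CPM in B-2 libraries. Its log2FC was 0.64 (SE 0.23, adjusted p = 0.116), and TET2-KO B-1a 3 lay within the B-2 range. Uqcr11 (chr10:80238831-80242664, minus strand), a small subunit of complex III, had 220, 247, 159 and 280 CPM in B-1a and 170, 143, 143 and 124 CPM in B-2 libraries, with the same B-1a library inside the B-2 range. Atp5f1e, the epsilon subunit in the central stalk of ATP synthase, had 171, 185, 150 and 284 CPM against 147, 110, 139 and 116 CPM, without overlap and with a log2FC of 0.59 (SE 0.23, adjusted p = 0.134). The assembly factor Ndufaf8 had 59.4, 79.4, 59.5 and 137 CPM against 49.1, 49.96, 48.3 and 63.3 CPM. The value of 137 CPM came from TET2-KO B-1a 4, and the log2FC of 0.63 became 0.30 without that library.

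Cox7a1 (chr7:29883569-29885503, plus strand), the heart and muscle isoform, was low in both subsets, at 1.64, 1.85, 2.19 and 2.56 CPM in B-1a and 0.179, 0.846, 0.966 and 0.406 CPM in B-2 libraries. The log2FC was 1.74 (SE 0.72, adjusted p = 0.157 by edgeR and 0.0412 by DESeq2), and the highest count of this gene in any library was 46. The testis isoform Cox6b2 had 2.52, 2.72, 1.61 and 1.195 CPM against 0.657, 0.987, 0.644 and 0.676 CPM, with a log2FC of 1.40 (SE 0.64, adjusted p = 0.193). Both isoforms were thus counted in each of these libraries at a level far below that of their ubiquitous relatives.

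Among the core subunits fixed by the rule for named genes, Atp5f1b had 1306, 1165, 1183 and 668 CPM in B-1a and 992, 777, 1216 and 506 CPM in B-2 libraries, with a log2FC of 0.28 (SE 0.26, 95% interval -0.23 to 0.79). Sdha had 355, 280, 314 and 187 CPM against 288, 243, 362 and 148 CPM (0.10, SE 0.25, 95% interval -0.39 to 0.59). Both had their lowest values in libraries numbered 4. For the other core subunits, the log2FCs were 0.14 for Ndufs1, 0.19 for Ndufv1, 0.32 for Sdhb, 0.27 for Uqcrc1, 0.18 for Uqcrfs1, 0.32 for Cox4i1, 0.16 for Cox5a and 0.37 for Atp5f1a, with SEs from 0.17 to 0.23. Atp5if1, which inhibits ATP synthase when it runs in reverse, stood at 0.46 (SE 0.23). The highest members of their complexes, Ndufa1, Uqcrb and Cox6a1, stood at 0.27, 0.32 and 0.17, with adjusted p from 0.469 to 0.643 (edgeR).

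Levels of 18 of 91 members lay higher in all 4 B-1a than in all 4 B-2 libraries of TET2-KO mice, against 8.9% of all genes tested. With counts divided by the plain library total, 6 of 91 did, against 4.02% of all genes. On that scale 67 of 91 members were higher in the mean of B-1a libraries, in place of 90, and the median log2 ratio was 0.13 in place of 0.40, where all genes moved from -0.02 to -0.29. Without TET2-KO B-2 libraries 2 and 4 the member median was 0.22. Receptor counts were 118 to 466 CPM of the plain total in the B-1a and 428 to 2994 in the B-2 libraries, and the 492 receptor genes tested had a median log2FC of -2.40, with 17 called, all lower in B-1a cells, a smaller share than the 5.82% of all genes. Macrophage markers summed to 4925 to 29120 CPM in the B-1a and 4499 to 20080 CPM in the B-2 libraries, with 0 of 11 called and 10 of 11 higher in B-1a cells (median log2FC 0.21). T cell markers summed to 18.01 to 51.04 CPM in the B-1a and 11.3 to 20.7 CPM in the B-2 libraries. Of these 7 markers, 4 were higher in B-1a cells (median log2FC 0.03, range -0.61 to 1.89) and 1 was called (Cd3g, higher). Of 5 tested plasma cell markers, 4 were higher (median log2FC 0.15, range -1.36 to 2.25) and 2 were called higher (Jchain and Prdm1). The part of any of these lists in the member values was not tested. The labels of these libraries matched their markers, with 7 of 7 B-1 markers higher (6 called) and 6 of 6 B-2 markers lower (6 called) in B-1a cells.

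B-1b and B-2 cells of TET2-KO mice share the B-2 libraries of the preceding comparison. Here 74 of 91 members were higher in B-1b cells, with a median log2FC of 0.11, against -0.10 over all genes. EdgeR called 0 members against 2.15% of all genes. At an unadjusted p under 0.05 there were 0 members, against 19.6% of all genes. DESeq2 called 0 members, where it called 2872 genes. With the plain library total, 25 of 91 members were higher in the mean of B-1b libraries, against 79 of 91 with TMM. Medians were 0.31 in complex II, 0.12 in complex III and 0.07 in complex V. Without TET2-KO B-1b 3 the member median was 0.29, and without TET2-KO B-2 libraries 2 and 4 it was -0.03.

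Between B-1a and B-1b cells of TET2-KO mice, 82 of 91 members were higher in B-1a cells, with a median log2FC of 0.25, against 0.04 over all genes. EdgeR called 0 members against 0.205% of all genes. At an unadjusted p under 0.05 there were 0 members, against 5.78% of all genes. DESeq2 called 0 members, where it called 141 genes. With the replicate number as a block, 103 genes were called in place of 38, and still 0 members, with 4 of 91 at an unadjusted p under 0.05 by edgeR. The median was -0.01 without TET2-KO B-1a 4 and TET2-KO B-1b 3. Beside this, 11 of 11 macrophage markers (median log2FC 0.45) and 6 of 7 T cell markers (0.54) were higher in B-1a cells, with 0 of either called, and their part in the member values was not tested. In WT mice 72 of 90 members were higher in B-1a cells with a median of 0.06, against -0.00 over all 13800 genes, and 0 members (0% of all genes) were called by edgeR, 0 at an unadjusted p under 0.05 and 0 by DESeq2, where 1.86% of all genes had an unadjusted p under 0.05 and DESeq2 called 1. That median was 0.28 when WT 1 and WT 2 were left out, from 2 libraries in each group. All 11 macrophage markers had a log2FC above 0 in WT B-1a cells too (median log2FC 0.60, 0 called). So did 5 of 5 red cell markers (median 3.58) and 7 of 7 proliferation markers (0.48), with 0 called. The part of these lists was not tested. Of 7 B-1 markers, which include Cd5, 5 were higher in WT B-1a cells (median 0.10, highest 0.92) and 0 were called. In TET2-KO mice Cd5 stood at 2.28 (adjusted p = 0.00834 by edgeR). B-1 markers thus separated B-1a from B-1b libraries less clearly in WT mice.

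Summed mt- genes took 0.677%, 2.19%, 1.69% and 1.47% of all counts in WT B-1a libraries and 1.37%, 2.11%, 1.88% and 1.28% in TET2-KO B-1a libraries. In B-1b cells they took 1.03%, 1.56%, 1.604% and 1.43% in WT and 1.34%, 2.08% and 1.93% in TET2-KO libraries. In B-2 cells they took 1.58% and 1.82% in WT and 1.28%, 1.71%, 1.84% and 1.48% in TET2-KO libraries. Genotypes overlapped in every subset, and the spread within WT B-1a cells exceeded any difference between groups. In TMM-scaled log2 sums, TET2-KO and WT cells differed by 0.08 in B-1a (p = 0.914), 0.15 in B-1b (p = 0.4) and -0.50 in B-2 cells (p = 0.267) by a two-sided exact permutation test. Within TET2-KO mice the exact permutation test gave 0.35 for B-1a against B-2 (p = 0.257), 0.39 for B-1b against B-2 (p = 0.229) and -0.04 for B-1a against B-1b cells (p = 0.971), and in WT mice it gave 0.02 for B-1a against B-1b cells (p = 0.971). Adjusted over these 7 comparisons, the exact permutation p ran from 0.623 to 0.971. The smallest p these designs allow is 0.0286 for 4 against 4 libraries, 0.0571 for 3 against 4 and 0.133 for 2 against 4, so the latter designs cannot reach 0.05.

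The summed mt- genes held 13 protein-coding, 2 rRNA and 22 tRNA genes, without fragments that align to several places. Their ratio to the nuclear sum is therefore not a balance of messages. This ratio of mt- to nuclear sums ran from 0.393 in the library labelled B-1a WT 1 to 1.53 in TET2-KO B-1b 3. In WT B-1a libraries it was 0.393, 1.33, 1.06 and 0.923, and in TET2-KO B-1a libraries 0.838, 1.35, 1.21 and 0.654. In B-1b cells it was 0.593, 0.959, 1.01 and 0.997 in WT and 0.834, 1.26 and 1.53 in TET2-KO libraries, and in B-2 cells 0.988 and 1.17 against 0.803, 1.15, 1.196 and 0.942. The ratio varied most among WT B-1a libraries, from 0.393 to 1.33. Group means ran from 0.89 in WT B-1b to 1.21 in TET2-KO B-1b cells. This range was narrower than that of the single libraries in every group except WT B-2, which holds 2 libraries. Over the 21 libraries the summed members and the summed mt- genes had r = 0.20 (Spearman 0.29) on the TMM scale and r = -0.44 (Spearman -0.44) as shares of counts, values that share library and depth.

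Other mitochondrial genes were taken from lists of the pathway. No list had a called gene in any comparison of genotypes. Between B-1a and B-2 cells of TET2-KO mice, 74 of 78 tested mitochondrial ribosomal protein genes were higher in B-1a cells (median log2FC 0.26) and 1 was called, against 5.82% of all genes, so that the called share was not above that of all genes. It was Mrpl52 (1.13, SE 0.18, adjusted p = 0.00111 by edgeR). Of 38 tested assembly factors outside the members, 31 were higher (median 0.24) and 1 was called, also a smaller share than over all genes. It was Cmc1, a factor for complex IV (1.24, SE 0.28, adjusted p = 0.0137 by edgeR), whose call was lost without TET2-KO B-2 2 (adjusted p = 0.0521) and without TET2-KO B-2 2 and 4 (adjusted p = 0.182). Of 15 regulators of mitochondrial genes, 7 were higher (median -0.10), and Myc, a transcription factor of cell growth, was the 1 gene called (1.49, SE 0.32, adjusted p = 0.0106 by edgeR). Its call was lost with all 6 groups in 1 fit (adjusted p = 0.0559) and without TET2-KO B-2 2 and 4 (adjusted p = 0.135). Of 16 genes of the tricarboxylic acid cycle and pyruvate dehydrogenase, 14 were higher (median 0.17) with 0 called. Of the mt- protein genes, 12 of 13 were higher (median 0.40) with 0 called and 0 at an unadjusted p under 0.05. Cytochrome c (Cycs), cytochrome c1 (Cyc1) and Dmac2l, which the naming pattern misses, were all higher (median 0.24) with 0 called. In the 3 genotype comparisons, the tricarboxylic acid cycle genes had medians of -0.19 in B-1a, -0.05 in B-1b and -0.29 in B-2 cells, and the mitochondrial ribosomal protein genes -0.02, -0.18 and -0.25.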

How the data were processed

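RNA of B cell subsets sorted from the peritoneal cavity was sequenced in 21 libraries, and the files hold counts of fragments per gene as the authors deposited them, with no normalization. The authors trimmed reads with fastp, aligned them with STAR to GRCm39 and counted exons of GENCODE M32 with featureCounts 1.6.1, ignoring strand and leaving out multi-mapping fragments and those that overlap several genes. Library preparation from ultra-low input is described differently in the labels and in the study's methods. Genes were given symbols from GENCODE M39 for 56310 of 56953 identifiers. Total counts ranged from 9667187 to 24152518 per library, so counting error is small for most members and large for isoforms with the fewest counts.

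Counts were fitted with edgeR 4.0.16 (quasi-likelihood test, TMM, low counts removed by group, limma 3.58.1, R 4.3.3) over all genes, with Benjamini-Hochberg adjustment at 0.05. Each genotype comparison used the libraries of its subset, and the subset comparisons those of 1 genotype. Levels are CPM scaled by TMM over the 21 libraries. For summed mt- genes an exact permutation test, two-sided, was run and adjusted over 7 comparisons. Exact copies of 100-base windows were searched in GRCm39 with numba 0.67.0. Alternatives were DESeq2 1.42.0, other filters, size factors and genes for scaling, 1 fit of all 6 groups, a replicate block, and leaving out libraries. The script for the tests was tested on simulated data for TET2-KO against WT in B-1a cells and for B-1a against B-2 cells of TET2-KO mice. Simulated log2 changes of 0.4 had the right sign in 96% and 90% of 100 genes, and 0% were called. Of log2 changes of 1, 11% and 24% were called. The member medians were smaller than 0.4, and sizes below 0.4 were not simulated. A count of no called members therefore does not show equal levels.

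Members and lists were chosen with earlier results of these data known. Genes described by rule were called genes, the highest member of each complex per length, listed core subunits with Cox7a2l, and tissue isoforms, and the others were chosen after their values were seen. Whether libraries of different subsets share a mouse is not stated in the sources used here, and p-values measure the spread between these libraries. No libraries held identical counts. Replicate numbers were taken to pair groups only with 3 or more pairs, each with a correlation of deviations over 0.1, which held for TET2-KO B-1a with TET2-KO B-1b libraries (3 pairs, 0.163 to 0.258). Groups with 2 pairs were not judged, although WT B-2 libraries also had correlations of 0.126 with WT B-1a, 0.534 with WT B-1b and 0.31 with TET2-KO B-2 libraries. The labels state no shared mouse.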

Additional observations from a re-analysis of the deposited data

Results flagged for a closer look

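Among 120 sets of 4 libraries of 1 group, 2 had a library whose gap to the nearest other library exceeded Dixon's critical share of the range, and chance alone gives about 1 in 20. The ratio of mt- to nuclear sums in the library labelled B-1b WT 1 was 0.593, against 0.959 to 1.01 in the other 3 WT B-1b libraries, a gap of 0.876 of the range. The ratio of complex I to complex V counts in TET2-KO B-1a 4 was 1.504, against 0.999 to 1.07 in the other 3 libraries of its group, a gap of 0.853 of the range.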

How the results depend on the processing

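The number of members called was 0 in all 8 comparisons with edgeR. It moved only for B-1a against B-2 cells of TET2-KO mice. With DESeq2 it was 1 of 94 (Cox7a1), where 3478 of all genes were called. With no filter on low counts it was 1 of 94 (Cox6c, adjusted p = 0.0402 by edgeR), where 1699 of all genes were called. Without TET2-KO B-1a 4 and B-1b 3 it was 3 of 92, where 2186 of all genes were called. These were Atp5mc2, Ndufs8 and Sdhd (adjusted p = 0.0374 to 0.0495 by edgeR), and this last setting was chosen after seeing the data. Leaving out any 1 library gave 0 to 0 members. Over all genes, DESeq2 called 186 genes in B-1a, 60 in B-1b and 169 in B-2 cells between genotypes, where edgeR called 7, 0 and 0, and 3478, 2872 and 141 between subsets of TET2-KO mice, where edgeR called 1080, 399 and 38. The cause was not tested.

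With counts divided by the plain total, the summed log2 difference of the members was 0.0238 between genotypes in B-1a, -0.0298 in B-2 cells and 0.11 between B-1a and B-2 cells, and the last was 0.20 without TET2-KO B-2 libraries 2 and 4. Without those 2 libraries Sdha stood at -0.21 and Atp5f1b at -0.0484 between B-1a and B-2 cells, and Myc (adjusted p = 0.135) and Cmc1 (0.182) lost their calls. Sdha stood at -0.0127 with at least 10 counts in every library and ran from -0.0854 to 0.26 when 1 library was left out (-0.0719 without TET2-KO B-1a 1). Myc lost its call with all 6 groups in 1 fit (adjusted p = 0.0559) and Cmc1 without TET2-KO B-2 2 (0.0521).

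When 1 library was left out, the summed mt- difference between genotypes ran from -0.24 to 0.32 in B-1a cells, and the range in B-1b cells was -0.0188 to 0.29. Leaving out WT 1 and WT 2 together gave -0.0409 in B-1a cells. Between B-1a and B-1b cells it ran from -0.23 to 0.12 in TET2-KO mice (0.10 without TET2-KO B-1a 4 and B-1b 3) and from -0.22 to 0.34 in WT mice (-0.0109 for mt- protein genes alone). With 1 library fewer, most of these designs cannot reach 0.05, so only the values are given.

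With the replicate number as a block, 0 members were called in all 8 comparisons. Members with an unadjusted p under 0.05 by edgeR were counted too. Between genotypes there were 1 of 90 in B-1a, 20 of 90 in B-1b and 21 of 91 in B-2 cells. Between TET2-KO subsets there were 26 of 91 for B-1a against B-2, 0 for B-1b against B-2 and 4 for B-1a against B-1b cells. The WT subset comparison and the interaction had 0. The share of all genes at that level was not counted with the block. Beyond the paired TET2-KO B-1a and B-1b libraries the replicate numbers did not meet the rule for pairing, which needs 3 or more pairs. The block gave 48 called genes between genotypes in B-1a cells, 0 in B-1b and 0 in B-2 cells, 1638 and 667 for B-1a and B-1b against B-2 cells, and 2 between WT B-1a and B-1b cells. Depth limits mainly the tissue isoforms, and B-2 comparisons between genotypes rest on 2 WT libraries.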
